A study of Mus musculus with 25 samples.

Results

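H3K27me3 peaks that the authors' annotation called distal intergenic were examined in myofibers regenerating in the tibialis anterior muscle of mice. The peaks were selected on 3 properties of the deposited lists, which were a position on chromosomes 1 to 19, the class distal intergenic, and a width under 3000 bp. They numbered 9660 of the 55242 peaks of the series, and of 30979 autosomal H3K27me3 peaks. Since these properties chose the peaks, every share, width and position given here describes peaks within those limits.

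All mice carried a mito-Dendra2 allele switched on by a Pax7-Cre(ERT2) driver, so that muscle stem cells and the fibers they form are labelled. They received tamoxifen at 75 mg/kg on each of 5 days, the muscle was then injured with BaCl2 (1.2%, 50 µL), and at 14 days post injury (dpi) the Dendra2+ myofibers were collected. Wild-type myofibers were compared with mfn2-/- myofibers, which lack mitofusin 2, with vhl-/- myofibers, which lack VHL, the ubiquitin ligase subunit that targets HIF1α for destruction, and with HIF1dPA myofibers, which express a HIF1α that VHL cannot target. Each genotype had 3 H3K27me3 libraries. The labels give no age or sex, Cre acts only in cells of the Pax7 lineage, and neither the deleted genes nor the identity of the fibers can be checked from peaks.

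H3K27me3, trimethylation of lysine 27 of histone H3, is laid down by Polycomb repressive complexes and marks genes held silent. In differentiated cells it is known at the CpG-rich start sites of developmental regulators of other lineages, and it spreads from there into flanking DNA. The question here was which intergenic sites carried called H3K27me3 peaks in myofibers, which genes they lay next to, and how both varied with genotype. Sequencing depth is unknown, since no read totals come with the peaks, and a missing peak is one that was not called. In bulk chromatin, fewer cells with the mark and less mark per cell cannot be told apart.

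A few of these intergenic peaks touched a window around the start site of a RefSeq gene, and 3 such windows are shown because their sequence can be read. Of the RefSeq start-site windows on 18 autosomes (250 bp before to 50 bp after the start, GRCm38.p6, the assembly of mm10), 86 windows of 74 genes overlapped an intergenic peak, and 61 of these genes were long noncoding RNAs (lncRNA). By window, 84.9% were of lncRNAs, against 36.0% of all windows. The class distal intergenic leaves out peaks at promoters of the authors' annotation, so the selection itself limits which start sites can appear here. The windows below were overlapped in the most libraries, are written 5′ to 3′ along the transcript, and have CG dinucleotides in capitals.
Gm33293 (chr5:67231637-67231936, minus strand): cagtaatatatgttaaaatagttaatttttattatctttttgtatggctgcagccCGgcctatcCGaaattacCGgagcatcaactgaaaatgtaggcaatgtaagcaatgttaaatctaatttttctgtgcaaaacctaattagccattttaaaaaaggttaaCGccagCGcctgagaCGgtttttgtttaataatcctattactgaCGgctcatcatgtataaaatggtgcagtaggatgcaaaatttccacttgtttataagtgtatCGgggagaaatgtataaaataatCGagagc
A730094K22Rik (chr9:91351161-91351460, minus strand): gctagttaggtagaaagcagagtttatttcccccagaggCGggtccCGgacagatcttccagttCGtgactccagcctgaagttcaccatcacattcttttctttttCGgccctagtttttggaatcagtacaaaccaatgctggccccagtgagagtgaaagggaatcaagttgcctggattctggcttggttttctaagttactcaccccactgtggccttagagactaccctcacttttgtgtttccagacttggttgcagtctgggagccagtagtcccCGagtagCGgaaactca
Gm32876 (chr12:106478994-106479293, plus strand): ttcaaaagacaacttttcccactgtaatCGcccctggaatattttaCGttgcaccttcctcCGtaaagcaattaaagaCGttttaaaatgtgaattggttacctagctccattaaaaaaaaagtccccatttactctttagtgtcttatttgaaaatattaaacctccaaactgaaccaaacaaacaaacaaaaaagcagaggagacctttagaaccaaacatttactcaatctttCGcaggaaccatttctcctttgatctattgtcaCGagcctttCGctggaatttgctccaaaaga

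The Gm33293 window lay under an intergenic peak in 8 libraries. The scores of those peaks, which are 10-fold the -log10 p that the peak caller gave, were 58.5, 96.1 and 74.2 in wild-type, 71.9 in mfn2-/- replicate 1, 189, 117 and 89.55 in vhl-/-, and 59.8 in HIF1dPA replicate 2. Peaks at this start site were thus called in every wild-type and vhl-/- library and in 1 library each of mfn2-/- and HIF1dPA. The authors assigned them to Tmem33, which encodes a membrane protein of the endoplasmic reticulum. The A730094K22Rik window, at peaks assigned to Zic1, a zinc finger factor of the neural tube, lay under a peak in 8 libraries, all but wild-type replicate 1 and the 3 HIF1dPA libraries. The Gm32876 window lay under a peak in 7 libraries, 1 of them HIF1dPA replicate 3. The 3 windows held 9, 6 and 7 CG dinucleotides, with observed-over-expected ratios of 1.01, 0.329 and 0.769. Across all 86 windows the median was 6.5 CG and a ratio of 0.350, against 7 and 0.389 over 31396 windows, and against 16 and 0.639 in the 1206 windows under a promoter peak of less than 3000 bp. These medians were near those of all windows, but a ratio of 0.6 or more was reached by 23.3% of the 86 windows against 36.4% of all. The sets also differ in their share of lncRNAs. Only 140 intergenic peaks, 1.45%, touched any window, so this describes few of them.

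Intergenic peaks were fewest in HIF1dPA myofibers. Wild-type libraries held 1157, 1111 and 1099 intergenic peaks, mfn2-/- libraries 732, 727 and 750, vhl-/- libraries 1111, 1247 and 1117, and HIF1dPA libraries 200, 185 and 224. All mfn2-/- and HIF1dPA libraries lay below all wild-type libraries, whereas the vhl-/- and wild-type ranges overlapped. The means were 1122 ± 30.6 (SD, n = 3) for wild-type, 736 ± 12.1 for mfn2-/-, 1158 ± 76.8 for vhl-/- and 203 ± 19.7 for HIF1dPA, and they differed across genotypes (exact permutation test of log2 numbers, p = 0.00039, adjusted p = 0.00107 over 11 tests). Against wild-type the ratio of means was 0.656 in mfn2-/-, 1.03 in vhl-/- and 0.181 in HIF1dPA (exact two-sided permutation p = 0.1, 0.6 and 0.1). A comparison of 3 with 3 libraries cannot go below 0.1. The 3 comparisons share the same wild-type lists.

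Promoter peaks followed a similar order, with ratios to wild-type of 0.734, 1.12 and 0.109. So did exon and intron peaks, with 0.641, 1.03 and 0.144. The fall in HIF1dPA was thus larger in both of these classes than in intergenic peaks. Intergenic peaks made up 31.0%, 32.5% and 32.2% of autosomal peaks under 3000 bp in wild-type, 30.02%, 31.2% and 29.4% in mfn2-/-, 29.04%, 31.4% and 31.1% in vhl-/-, and 42.4%, 37.6% and 45.3% in HIF1dPA. Every HIF1dPA library was above every other library. The share differed across genotypes (exact permutation p = 0.0039, adjusted p = 0.00536), and among the 9 libraries other than HIF1dPA the exact p was 0.214. With only the 474 strongest autosomal peaks of each library kept, the order of the numbers turned, with 196 ± 16.8 intergenic peaks in HIF1dPA against 108 ± 10.5 in wild-type, 105 ± 3.06 in mfn2-/- and 96 ± 13 in vhl-/- (n = 3 each; exact permutation p = 0.00682 across genotypes). The HIF1dPA lists hold only 474, 493 and 496 autosomal peaks, and the other lists 2342 to 4023. Nearly whole HIF1dPA lists were thus set against the strongest part of the others, where promoter peaks rank higher. This is not a comparison at equal strength. The mfn2-/- lists also held 1063, 1016 and 1105 peaks on the X chromosome, which was left out here, compared with 5 to 13 in the other 9 lists, and the labels give no sex. Over all chromosomes mfn2-/- lists held 3518 ± 160.5 H3K27me3 peaks and wild-type lists 3551 ± 195.2 (n = 3 each), so that the whole lists were of similar length and the autosomal part was shorter in mfn2-/-. The part of this in the lower autosomal number was not tested.

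**Figure D1:**
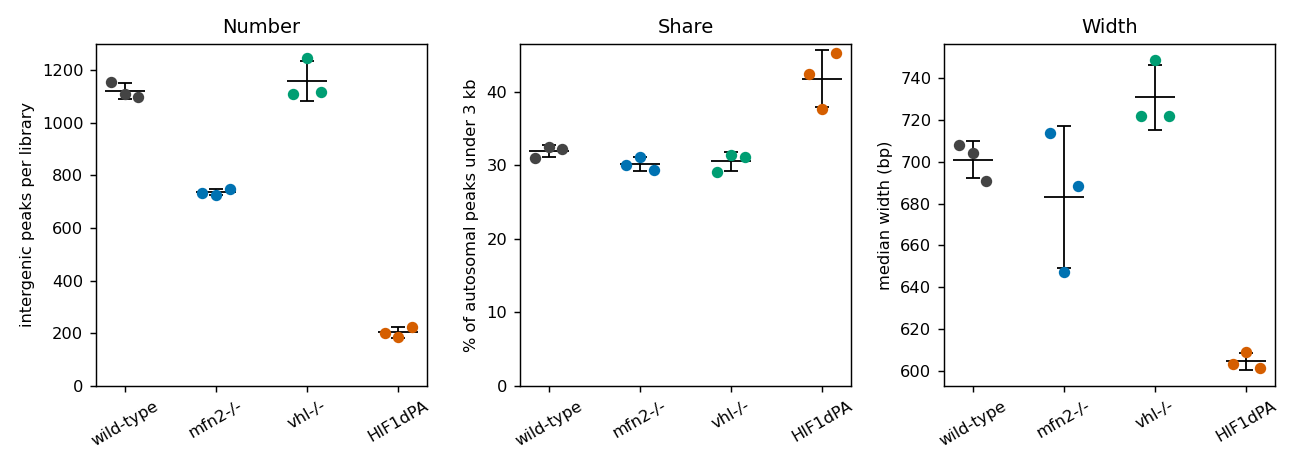
Number of intergenic H3K27me3 peaks per library, their share of autosomal peaks under 3 kb (%), and their median width (bp, axis not from 0), by genotype. Points are the 3 libraries, the line is the mean and bars are SD. HIF1dPA libraries hold 185 to 224 peaks and sit below all others in number and width and above all others in share.

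The peaks were narrow and mostly close to the calling limit. Widths ran from 371 to 2998 bp with a median of 698 bp. The widest peak inside the limit was a 2998-bp peak assigned to C130071C03Rik in wild-type replicate 1, and the narrowest outside it was a 3040-bp peak assigned to Fam172a in vhl-/- replicate 2, and 60 intergenic peaks were left out as too wide. Median widths were 708, 704 and 691 bp in wild-type, 714, 647 and 688.5 bp in mfn2-/-, 722, 749 and 722 bp in vhl-/-, and 603, 609 and 601 bp in HIF1dPA. HIF1dPA medians were below those of every other library, and the median width differed across genotypes (exact permutation p = 0.0011, adjusted p = 0.00202, and p = 0.0607 among the 9 other libraries). Without the width limit the range of genotype means was 128.5 bp (exact permutation p = 0.0011). Promoter medians averaged 645 bp in HIF1dPA against 819 bp in wild-type, 777.5 bp in mfn2-/- and 858 bp in vhl-/-. For exon and intron peaks they were 605, 687, 665 and 712 bp in the same order. The lower width in HIF1dPA was thus not particular to intergenic peaks. No listed score was under 50, and a score of at least 100 was reached by 11.8% ± 0.322 of intergenic peaks for wild-type, 13.2% ± 0.856 for mfn2-/-, 15.5% ± 0.325 for vhl-/- and 3.15% ± 0.568 for HIF1dPA (n = 3 each). Only 6 or 7 peaks per HIF1dPA library reached that score.

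Within a library, intergenic peaks were narrower and weaker than promoter peaks and came back less often in the other replicates. Their median width was 95 bp smaller than that of promoter peaks (lower in 12 of 12 libraries). Width also limited the selection, and peaks of 3000 bp or more were left out of every class before medians were taken. The width comparisons between classes thus cover only peaks under that limit. Under 2000 bp the difference from promoter peaks was -87.4 bp. The mean score percentile of intergenic peaks within the list was 8.9 points lower (lower in 12 of 12). A peak of the other 2 replicates overlapped 37.1% ± 0.729 of wild-type intergenic peaks, 39.4% ± 1.78 in mfn2-/-, 42.1% ± 2.18 in vhl-/- and 8.26% ± 2.19 in HIF1dPA (n = 3 each). For promoter peaks these shares were 55.8% ± 3.05, 56.8% ± 3.36, 62.4% ± 2.23 and 14.9% ± 0.456, so that the mean difference was 15.8 points, again in 12 of 12 libraries. All 3 differences reached the smallest p that 12 sign flips allow (exact sign-flip permutation p = 0.000488, adjusted p = 0.00107). The difference in recurrence was not kept among strong peaks. At a score of at least 100 it was 0.795 points in favour of intergenic peaks (exact permutation p = 0.713), and with the 474 strongest peaks per library the difference was -2.77 points (exact p = 0.12).

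Against exon and intron peaks the differences were small. Intergenic peaks were 12.5 bp wider (10 of 12 libraries, exact permutation p = 0.00537, adjusted p = 0.00656), 2.26 percentile points stronger (10 of 12, p = 0.00195, adjusted p = 0.00307) and 1.87 points more recurrent (10 of 12, p = 0.0205, adjusted p = 0.0226). The last of these missed the threshold without mfn2-/- replicate 2 (1.58 points, exact permutation p = 0.119), without HIF1dPA replicate 1 (1.52, p = 0.0518) and without HIF1dPA replicate 3 (1.06, p = 0.172). In wild-type, mfn2-/- and vhl-/- libraries 50.7% to 56.8% of intergenic peaks lay within 100 kb of a promoter peak of the same library, and in HIF1dPA, with its 176 to 207 promoter peaks, 9% to 13.5% did. The median distance to a promoter peak exceeded that of exon and intron peaks in 10 of 12 libraries, yet the mean difference was -37.5 kb (exact permutation p = 0.999). It turned to 77.5 kb without HIF1dPA replicate 2 (exact permutation p = 0.00293), and was 32.6 kb over the 9 libraries other than HIF1dPA (p = 0.0117).

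To see which sites recurred, overlapping autosomal H3K27me3 peaks of all 12 libraries were merged, and 5301 of the 13095 regions held at least 1 intergenic peak. Of these, 4078 regions (76.9%) had a peak in 1 library only, 336 (6.34%) in 6 or more, and 15 in all 12. Merging can chain neighbouring peaks, and 243 of the regions, 180 of them in 6 or more libraries, also held a promoter, exon, intron or wider peak. Among regions made of one class alone, 3.08% of 5058 intergenic regions had a peak in 6 or more libraries, compared with 7.82% of 4760 promoter regions and 2.41% of 2618 exon and intron regions. Intergenic regions were thus mostly seen once, and their recurrence lay near that of exon and intron regions.

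**Figure D2:**
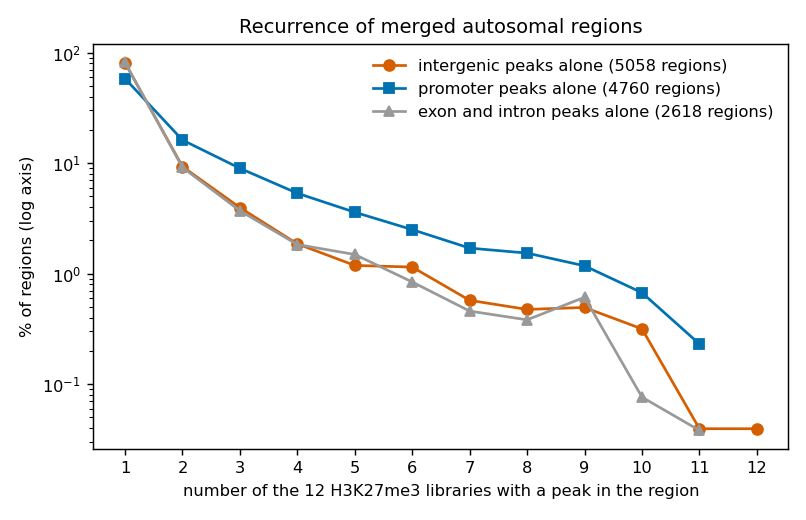
Share of merged regions (%, log axis) by the number of the 12 H3K27me3 libraries with a peak in the region, for regions made of intergenic, promoter, or exon and intron peaks alone. Intergenic regions fall from 80.6% in 1 library to 3.08% in 6 or more, and promoter regions from 58.1% to 7.82%.

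Of the 15 regions present in all 12 libraries, the 10 with the highest mean score percentile were assigned to Gm5614, Nkx2-4 (homeobox), Igf2bp3 (fetal RNA-binding protein), Sp8 (zinc finger factor of limb and brain), Mir148a (microRNA), Lin28b (blocks maturation of let-7 microRNAs), Otp (hypothalamic homeobox factor), Gm21188, Gm26553 and Gm9075. An intergenic peak was itself present in every library at Gm5614, Igf2bp3, Mir148a, Gm9075, Tmem33 and Gsx2, a homeobox factor of the forebrain. At Mir148a (chr6:51178600-51187966) the strongest peak scored 493, 302 and 580 in wild-type, 412, 224 and 311 in mfn2-/-, 542, 507 and 223 in vhl-/-, and 71.8, 67.0 and 61.2 in HIF1dPA. The HIF1dPA libraries were below all others there, and 4 of the other peaks, of 3579 to 4935 bp, were wider than the limit set here. At Igf2bp3 (chr6:49212509-49229202) the strongest peak of the region, often a promoter peak or a peak over 3000 bp, scored 174 to 741 in the 9 other libraries and 57.9 to 119 in HIF1dPA. Scores depend on depth, which is unknown, so they were not tested between libraries. Within its own list the strongest Mir148a peak stood at the 97.1 to 99.9 percentile in the 9 other libraries and at 71.6 to 90.1 in HIF1dPA.

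The predicted genes Gm5614 and Gm9075 stood apart. The Gm5614 region (chr9:35304699-35306050) was the strongest intergenic peak in all mfn2-/- and HIF1dPA lists and in vhl-/- replicates 2 and 3, with scores of 205, 336 and 178 in wild-type, 590, 866 and 704 in mfn2-/-, 253, 347 and 428 in vhl-/-, and 510, 522 and 450 in HIF1dPA. Its rank among all autosomal H3K27me3 peaks was 2, 2 and 3 in the HIF1dPA lists. At Gm9075 (chr12:3109353-3110641) the scores were 79.45, 187 and 89.9 in wild-type, 265, 331 and 323 in mfn2-/-, 87.8, 68.5 and 184 in vhl-/-, and 228, 243 and 188 in HIF1dPA. Within their own lists, HIF1dPA peaks stood at the 99.6 to 99.8 percentile at Gm5614 and at 99.0 to 99.4 at Gm9075, and wild-type peaks at 96.9 to 99.6 and at 68.8 to 97.3. Both also carried a peak in all 12 H3K9me3 lists, at scores of 566 to 1927 and 253 to 990, whereas Igf2bp3, Mir148a, Tmem33 and Gsx2 had none in any. H3K9me3 marks constitutive heterochromatin. In the H3K9me3 lists Gm5614 ranked 3 to 6 and Gm9075 ranked 6 to 21. The input library was not used here, so signal at these sites without an antibody was not tested. Across all intergenic regions 45 of 5301 (0.849%) overlapped a peak in any H3K9me3 list, so shared sites were rare. They were 11 of 336 regions in 6 or more libraries (3.27%) and 20 of 4078 in 1 library (0.490%). H3K9me3 peaks of the same genotype overlapped 3.15% ± 1.16 of HIF1dPA and 0.508% ± 0.148 of wild-type intergenic peaks (n = 3 each). These were 4 to 8 and 4 to 7 peaks per library. For promoter peaks the shares were 2.98% and 0.310%.

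HIF1dPA libraries shared few intergenic sites. Of 591 intergenic regions with a HIF1dPA peak, 17 (2.88%) had one in all 3 libraries, compared with 241 of 2473 in wild-type, 194 of 1524 in mfn2-/- and 291 of 2462 in vhl-/-. Those 17 were the 15 regions present in all 12 libraries plus Mir8092, present in 11, and Gm9923, present in 8, both named after their values were seen. An intergenic HIF1dPA peak was overlapped in 4.87% of cases by any given other HIF1dPA list, and in 23.9% by a wild-type, 21.2% by an mfn2-/- and 25.1% by a vhl-/- list, all of which hold more peaks. Base-pair overlap of intergenic peaks between lists (Jaccard index) averaged 0.091 over 12 pairs within genotypes and 0.0646 over 54 pairs between them (one-sided exact permutation p = 0.00013, adjusted p = 0.00107). Without HIF1dPA the difference fell from 0.0264 to 0.00741 (exact permutation p = 0.00714). Pairs of wild-type lists had a mean index of 0.105, and wild-type with vhl-/- lists 0.109. Pairs of HIF1dPA lists had 0.0240, and HIF1dPA lists had 0.0223 with wild-type, 0.0270 with mfn2-/- and 0.0206 with vhl-/- lists. The index is low where one list is far shorter, so the test over all 12 libraries cannot tell list length from sharing.

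Few sites separated wild-type from a mutant genotype by presence in all 3 libraries of one and none of the other. Of 3410 intergenic regions with a wild-type or mfn2-/- peak, 13 were wild-type only, against 0.844% of all autosomal H3K27me3 regions, and 9 were mfn2-/- only, against 0.217%. For vhl-/-, 4 of 4162 were wild-type only, against 0.317%, and 24 were vhl-/- only, against 0.569%. For HIF1dPA, 112 of 2859 were wild-type only, against 4.87%, and 0 were HIF1dPA only, against 0%. Taking all 9 mutant libraries, 2 of 5301 regions were wild-type only, against 0.153%, and 0 were seen in all mutants and not in wild-type, against 0%. Intergenic shares were 0.381%, 0.264%, 0.0961%, 0.577% and 3.92% in the first 5 of these, so the wild-type-only shares lay below the background and the mutant-only shares near it. Presence in 3 of 3 libraries depends on the calling limit, and leaving out 1 wild-type library raised the wild-type-only counts for mfn2-/- to 49 to 61 for vhl-/- to 26 to 35, for HIF1dPA to 182 to 206 and for all mutants to 18 to 25, and vhl-/- only regions to 38 without wild-type replicate 1. Leaving out 1 mfn2-/- library gave 17 to 28 mfn2-/- only and 22 to 24 wild-type-only regions, and leaving out 1 vhl-/- library gave 53 to 64 vhl-/- only and 9 to 11 wild-type-only regions. Without vhl-/- replicate 1, 5 regions were absent from all mutants.

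The wild-type regions without a peak in mfn2-/- lay at Ccs (copper chaperone), Septin14, Fezf1 (forebrain zinc finger factor), Gm11378 and H2-Q6 (an MHC class I gene), among the 5 with the highest percentiles. At Ccs (chr19:4818444-4819533) the 3 wild-type scores were 103, 112 and 89.2, all 3 vhl-/- libraries had a peak (102, 61.7 and 131), and so did HIF1dPA replicate 1 (72.9). Fezf1 peaks scored 99.3, 86.6 and 89.3 in wild-type. At Ccs a peak was thus missing from all mfn2-/- libraries and from HIF1dPA replicates 2 and 3. In the other direction, 2 neighbouring regions at 9230019H11Rik, at the start of the chromosome 10 sequence, were present in mfn2-/- lists alone, with scores of 282, 88.4 and 233 in the larger one (chr10:3112223-3115160). That region also had a peak in 6 H3K9me3 lists. The smaller one had a peak in 5, and its lowest mfn2-/- score was 53.0. The remaining 3 of the top 5 lay at Nefm (neurofilament), Six2 (kidney progenitor homeobox) and Cdkn1a (cell cycle inhibitor). Their lowest mfn2-/- scores were 55.7, 52.6 and 54.0, just past the limit of 50. Nefm and Six2 also had a peak in 2 vhl-/- libraries each. Cdkn1a had one in HIF1dPA replicate 1 (57.8) and in 3 H3K9me3 lists.

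Between wild-type and vhl-/-, the 4 wild-type regions were at En2, Nr2f2, Nop58 and Arhgef1. At the homeobox gene En2 (chr5:28121670-28124951) wild-type scores of 79.6, 77.8 and 67.05 compared with 175, 154 and 73.3 in mfn2-/-, 50.2 in HIF1dPA replicate 2 and no peak in vhl-/-. Nop58 and Arhgef1 were the 2 regions absent from all 9 mutant lists, at wild-type scores of 74.35, 57.0 and 77.0, and of 95.2, 55.1 and 64.1. The top 5 vhl-/- regions lay at AA387200, Nkx2-3 (homeobox), Hand1 (basic helix-loop-helix factor of heart and placenta), Rpl31-ps16 and Gtf3c3. Hand1 peaks scored 70.7, 91.4 and 160 in vhl-/-, and Rpl31-ps16 and Gtf3c3 had peaks in vhl-/- lists alone. The strongest wild-type regions without a HIF1dPA peak were at Zic2, Atoh1 (basic helix-loop-helix factor of hair cells and cerebellum), Zic1, Dmrt1 (sex-determination factor) and Gm26872. These 5 regions were mixed with promoter peaks and were present in at least 8 of the 9 libraries other than HIF1dPA. A peak of any class counted as presence, and at Gm26872 the 3 wild-type libraries had promoter peaks and no intergenic peak. With only intergenic peaks counted, 79 regions were wild-type only against HIF1dPA.

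**Figure D3:**
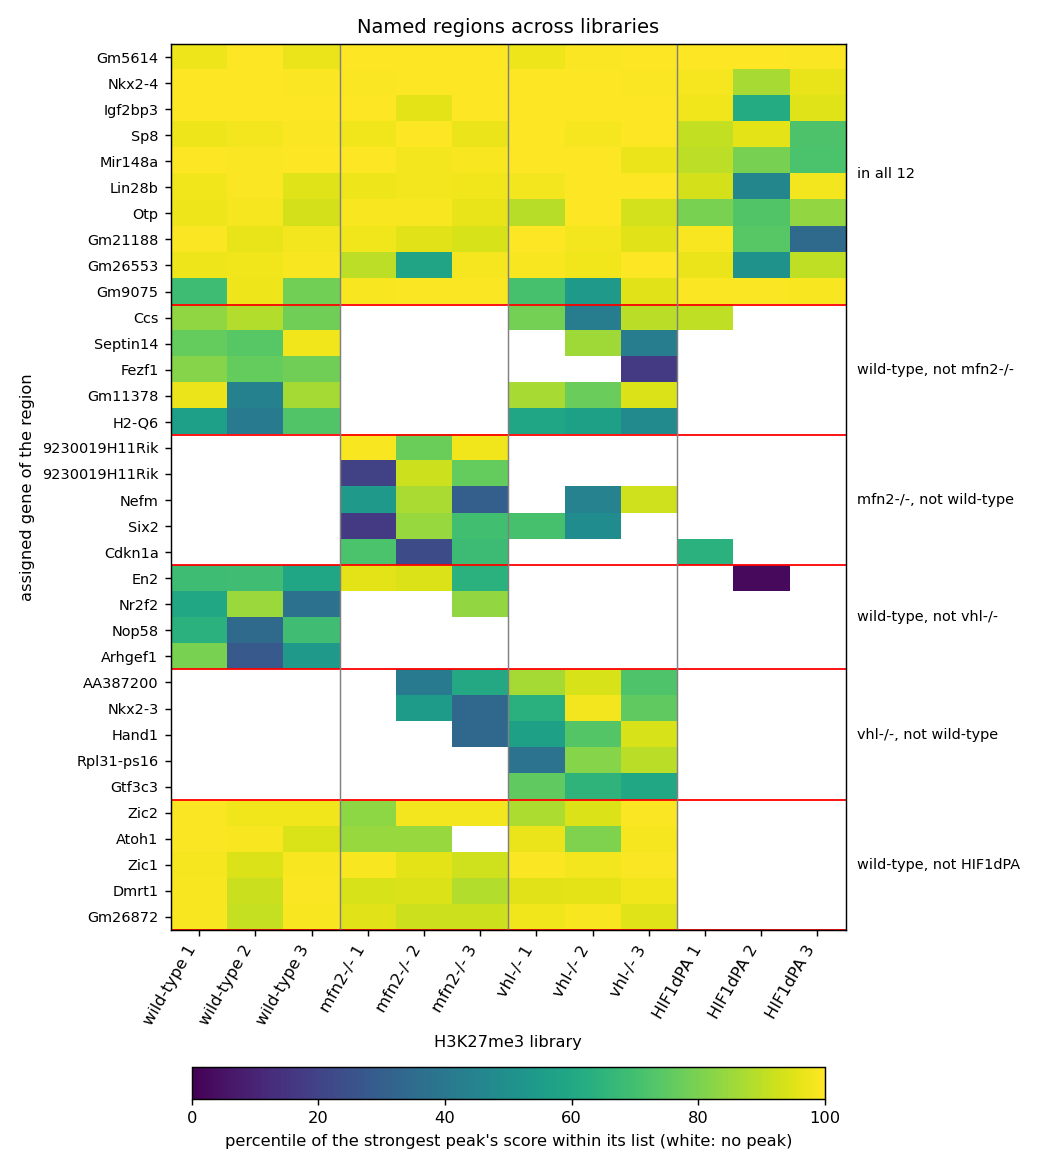
Percentile of the strongest peak's score within its own H3K27me3 list (colour, 0 to 100; white, no peak) for 34 regions (rows, by assigned gene) in 12 libraries (columns). The first 10 regions are present in all libraries, and the blocks beneath were chosen for presence in 1 group and absence in another, which fixes their white fields.

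Some genes had many intergenic regions beside them, although most regions were spread over many genes. The 5301 regions were assigned to 2853 genes, of which 1800 had 1 region, and the 186 genes with 5 or more held 25.4% of the regions. The leading genes were Nr2f2 (nuclear receptor of veins and mesenchyme, 20 regions), Gm26644 and Rybp (17 each; Rybp is itself a Polycomb subunit), Olig2 (16; oligodendrocyte and motor neuron factor), Uncx and Sox1ot (14 each), and Gm20467, Pax2, Mir148a and Pax3 (13 each, as had Tmem33). Pax3, a factor of muscle progenitors and neural crest, had 7, 11 and 5 intergenic peaks in wild-type, 6, 4 and 5 in mfn2-/-, 5, 8 and 7 in vhl-/- and 0 in each HIF1dPA library. At Nr2f2 these counts were 6, 4 and 10 in wild-type, 7, 5 and 11 in mfn2-/-, 5, 10 and 9 in vhl-/-, and 0, 0 and 2 in HIF1dPA. The 3 larger groups overlapped at both genes. The regions of Gm26644 and of Pax2, a kidney and eye factor, followed each other along chromosome 19, from 44639575 to 44883246. Rybp differed in that none of its 17 regions had a peak in over 2 libraries.

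Genes of developmental transcription factors were the most common neighbours of recurrent regions. Homeobox and paired-box factors were the assigned gene of 90 of 336 regions in 6 or more libraries (26.8%) and of 206 of 4078 in 1 library (5.05%), led by Uncx, Pax2 and Pax3. The list of Sox, Fox, T-box, Gata and Zic factors, which also holds the nuclear receptor Nr2f2, took 12.5% and 2.11%. Nr2f2, with 20 regions, led it, before Foxd1 and Zic4. Basic helix-loop-helix factors, led by Olig2, Olig3 and Twist1, took 8.63% and 1.45%. These lists covered 6.16%, 2.70% and 1.27% of all 13095 autosomal H3K27me3 regions. Among regions with a promoter peak and no intergenic peak they took 5.22%, 2.34% and 0.907%. Of the 13095 regions 69.6% were seen in 1 library, and shares among recurrent promoter regions are not given. The high recurrent shares are thus not shown to be particular to intergenic regions. In the 156 recurrent regions made of intergenic peaks alone, the shares of these lists were 21.8%, 10.9% and 8.33%. Wnt, FGF, BMP and hedgehog signals, with Gdf7, Wnt1 and Wnt8a, were assigned to 0.298% of recurrent regions and 0.687% of those seen once. Ion channels and neurotransmitter receptors (Cacna1e, Kcnk18, Adra2a) took 0.893% and 1.91%, and cadherins and synaptic adhesion genes (Cdh22, Nrg2, Epha8) 0.298% and 1.42%. The recurrent shares rest on 1, 3 and 1 regions, and over all autosomal regions these lists took 1.21%, 3.44% and 2.67%.

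Olfactory, vomeronasal and trace-amine receptors (70 regions, with Olfr63, Vmn1r1 and Olfr370) and a list of other zinc finger genes (79 regions, with Zfp677, Zbtb40 and Zbtb10) had 0 regions in 6 or more libraries. That list left out the Zic factors, counted above, and Sp8, whose region had a peak in all 12 libraries. Predicted and unnamed transcripts, led by Gm26644, Gm20467 and C130071C03Rik, were 28.9% of regions seen once and 15.8% of recurrent ones. MicroRNA and small RNA genes, with Mir148a, Mir9-3hg and Mir129-2, were 1.74% and 3.57%. Sarcomere and muscle genes had 2 regions, at Mybpc1 and Ryr3, each in 1 library. Regions with a promoter peak and no intergenic peak lay at such genes in 5 cases.

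**Figure D4:**
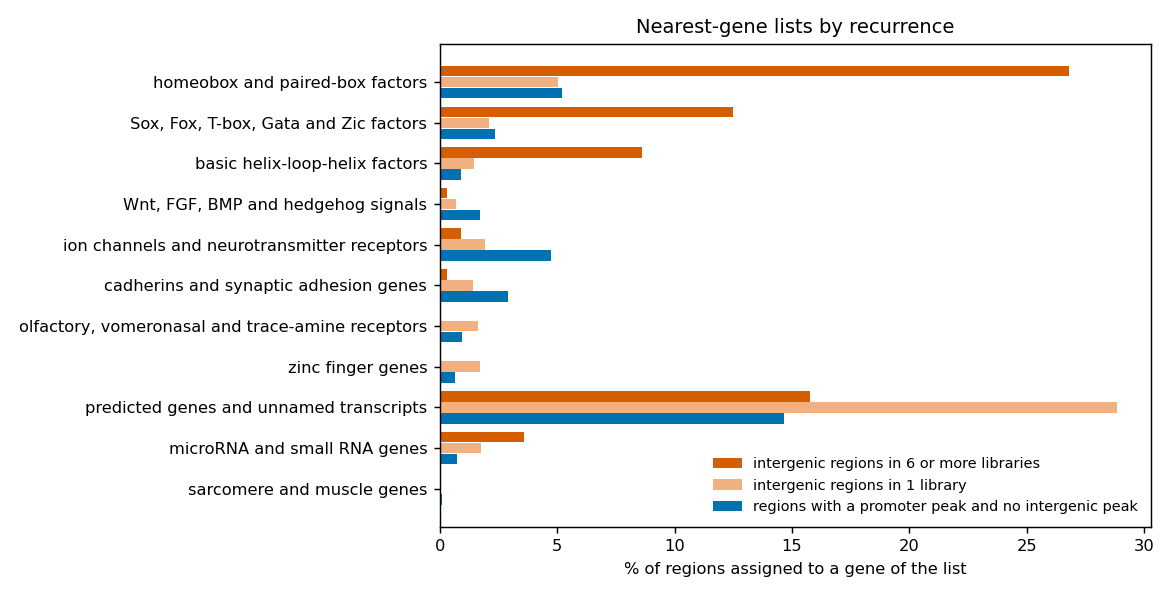
Share of regions (%) whose assigned gene belongs to each of 11 lists, for intergenic regions in 6 or more libraries, intergenic regions in 1 library, and regions with a promoter peak and no intergenic peak. Homeobox and paired-box factors reach 26.8% of the recurrent regions. The list that opens with Sox also holds Nr2f2, and the zinc finger list leaves out the Zic factors and Sp8.

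Developmental factors and signals together were assigned to 24.9%, 25.1% and 25.0% of intergenic peaks in wild-type, 30.6%, 31.5% and 31.2% in mfn2-/-, 26.8%, 26.5% and 25.9% in vhl-/-, and 14.0%, 17.8% and 14.3% in HIF1dPA. The mfn2-/- libraries were the highest, HIF1dPA the lowest, and no group overlapped another in this combined list. Wild-type and vhl-/- lay close together, with wild-type reaching 25.1% and vhl-/- starting at 25.9%. Within single lists some groups overlapped, such as basic helix-loop-helix factors at 3.24% to 4.37% in wild-type and 3.55% to 5.64% in mfn2-/-. Predicted and unnamed transcripts ran the other way, at 23.1% ± 0.654 for wild-type, 21.4% ± 1.36 for mfn2-/-, 23.1% ± 1.20 for vhl-/- and 30.7% ± 4.61 for HIF1dPA (n = 3 each). These shares were not tested, since the lists were chosen with results of these data known. Per-library shares among promoter peaks or all autosomal peaks are not given. Whether the order of genotypes is particular to intergenic peaks was thus not tested.

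Distal intergenic peaks were not all far from genes in the RefSeq annotation. A RefSeq gene span overlapped 20% to 28.3% of intergenic peaks per library, an lncRNA 13.5% to 21.2% and a protein-coding gene 5.31% to 7.92%. The median distance to the nearest protein-coding gene was 10.7 kb ± 0.650 in wild-type, 8.74 kb ± 1.11 in mfn2-/-, 9.56 kb ± 0.976 in vhl-/- and 20.2 kb ± 2.28 in HIF1dPA (n = 3 each). HIF1dPA peaks were thus the farthest, and 22.3% ± 1.51 of them were over 100 kb away, compared with 10.7% ± 0.936 in wild-type. By recurrence, the median distance of regions made of intergenic peaks alone was 8.78 kb over 156 regions in 6 or more libraries, 9.29 kb over 824 in 2 to 5, and 19.6 kb over 4078 in 1 library. With the mixed regions included, which are wider and often reach a promoter, it was 1.73 kb over the 336 regions in 6 or more libraries.

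By chromosome, 492 intergenic regions lay on chromosome 2 and 439 on chromosome 5, the most, and 131 on chromosome 18 and 162 on chromosome 16, the fewest. Relative to other autosomal peaks under 3000 bp, intergenic peaks were more common on chromosome 13 (8.81% against 5.78%) and chromosome 5 (9.24% against 6.62%) and less on chromosome 2 (8.33% against 12.9%). Peaks of a library are not independent, and these shares were not tested. Across genotypes, 0 of 19 chromosomes differed in their share of intergenic peaks (exact permutation tests with Benjamini-Hochberg adjustment), and 3 had an unadjusted p under 0.05. Among peaks with a score of at least 100, where HIF1dPA lists hold 6 or 7, 9 chromosomes passed. The share on chromosome 3 was 7.28% ± 1.85 in HIF1dPA against 3.83% ± 0.319 in wild-type, 3.98% ± 0.289 in mfn2-/- and 3.57% ± 0.550 in vhl-/- (exact p = 0.00864, adjusted p = 0.082), from 11, 17 and 16 HIF1dPA peaks. On chromosome 19 HIF1dPA had 3.93% ± 0.808 and wild-type 5.18% ± 0.623 (exact p = 0.00578, adjusted p = 0.082). Without wild-type replicate 3, chromosome 19 passed the threshold (exact permutation test, adjusted p = 0.0308).

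**Figure D5:**
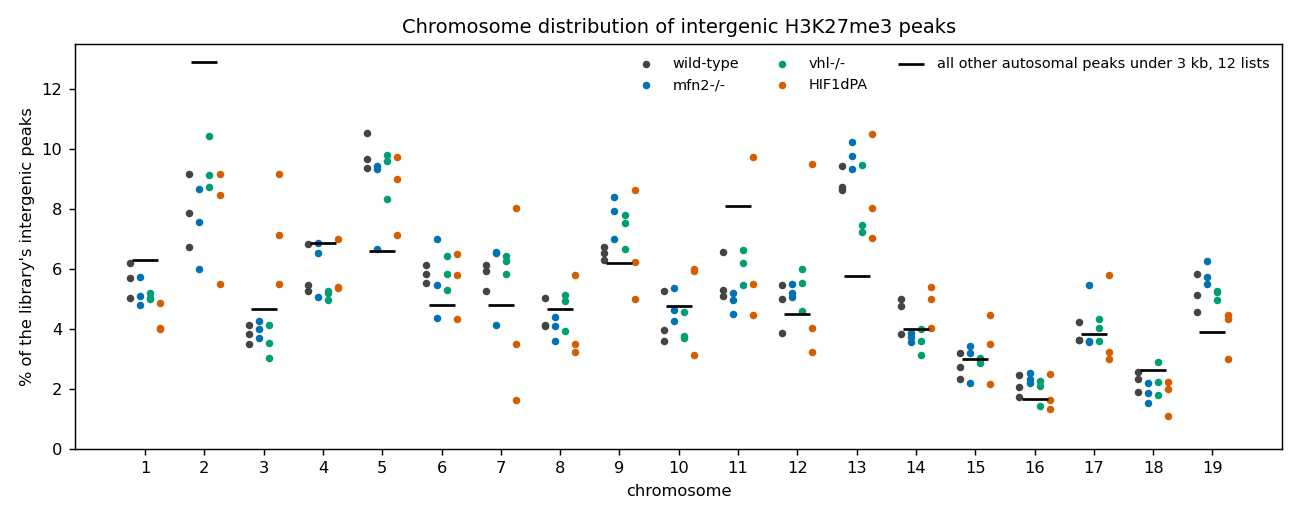
Share of each library's intergenic H3K27me3 peaks (%) on each autosome, with 3 points per genotype, and the share of all other autosomal peaks under 3 kb pooled over 12 lists (black lines). HIF1dPA points come from 185 to 224 peaks per library, and chromosomes 5 and 13 lie above the black line in all libraries.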

How the data were processed

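ChIP-seq peak lists of H3K27me3 (antibody ab6002) and H3K9me3 (ab8898) were used, 12 libraries of each mark, with 3 replicates per genotype; 1 input library had no list and was not used. Per the labels' processing notes, BWA 0.7.5, MACS and deepTools 3.5.0 were used with build mm10. Peaks were called per library, and the treatment of duplicates and of the input is not given in the sources used here. The deposited score is the caller's -log10 p multiplied by 10, with none under 50. Scores of different lists are given side by side but were not tested, and percentiles are within a list. The authors' annotation gave each peak's class and nearest gene. No read depth was given, so no counting interval was computed.

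Members and gene lists were chosen with earlier results of these data known. Peaks of the 12 H3K27me3 lists that overlapped by at least 1 bp were merged into regions, which took the gene most often assigned to their intergenic peaks. The study gives 3 mice per group for these data, while the labels do not tie libraries to animals. Genotypes were compared by exact permutation tests (15400 distinct arrangements of 4 groups of 3), mutants with wild-type 3 against 3, and classes within libraries by exact sign flips (4096 arrangements). The 11 tests formed the family for Benjamini-Hochberg adjustment. Named were the 10 regions in the most libraries (ties by mean score percentile), up to 5 separating regions per direction and comparison, the strongest intergenic peak per genotype, the 10 genes with the most regions, up to 3 genes per list, the 2 chromosomes with the most and the fewest regions, and any that differed. RefSeq tables (GRCm38.p6) matched 92.7% of assigned genes by symbol and supplied gene spans and start-site windows. Alternatives were a score of at least 100, the 474 strongest peaks per library, other widths, joining within 1000 bp, other overlap rules, a replicate block and leaving out each library; the set of 9 libraries other than HIF1dPA was added after seeing the data. Tests were checked on simulated data. Computations ran in Python 3.11.15 with pandas 2.3.3 on numpy 2.4.6, and plots were drawn in matplotlib 3.10.9.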

Additional observations from a re-analysis of the deposited data

Results flagged for a closer look

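In 3 comparisons every library of one mutant genotype lay above the wild-type mean and every library of another below it, and these differences between mutants were not tested. The intergenic share of peaks under 3000 bp was 9.85 points above wild-type in HIF1dPA and differed from it by -1.73 points in mfn2-/-, a difference (mfn2-/- minus HIF1dPA) of -11.6 points. For vhl-/- minus wild-type it was -1.39 points, a difference from HIF1dPA of -11.2 points. The median width was 30 bp above wild-type in vhl-/- and differed from it by -96.7 bp in HIF1dPA, a difference of 127 bp. Mean widths of promoter peaks and of exon and intron peaks were also highest in vhl-/- and lowest in HIF1dPA.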

How the results depend on the processing

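Over 20 results and 336 alternatives, 4 values changed direction. The order of genotypes by number of intergenic peaks turned with the 474 strongest peaks per library (a range of means of 100.3, exact permutation p = 0.00682), and recurrence against promoter peaks turned at a score of at least 100 (0.795 points, p = 0.713). The 474 strongest peaks are nearly the whole HIF1dPA lists. The distance to a promoter peak turned without HIF1dPA replicate 2 (77.5 kb; range over the left-out libraries -77.7 to 77.5) and over the 9 libraries other than HIF1dPA (32.6 kb). The causes were not tested.

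At a score of at least 100, where HIF1dPA lists hold 6 or 7 intergenic peaks, 9 chromosomes differed, the percentile difference from promoter peaks was -0.248 (exact permutation p = 0.124), and wild-type-only regions were 2 for mfn2-/-, 1 for vhl-/-, 47 for HIF1dPA and 0 for all mutants, with 2 mutant-only regions for mfn2-/- and 2 for vhl-/-. With the 474 strongest peaks, wild-type-only regions were 0, 2, 13 and 0 in the same order and mutant-only regions 3, 1 and 1. There the differences from exon and intron peaks missed the threshold in width (25.5 bp, exact permutation p = 0.121), percentile (0.831, p = 0.147) and recurrence (1.42 points, p = 0.458), as did recurrence against promoter peaks (-2.77 points, p = 0.12). Recurrence against exon and intron peaks was 1.51 points under 2000 bp (exact permutation p = 0.0513), and joining peaks within 1000 bp left 14 vhl-/- only regions. Over the 9 libraries other than HIF1dPA the range of the share was 1.73 points (exact permutation p = 0.214), that of the median width 47.8 bp (p = 0.0607), and recurrence against exon and intron peaks 1.47 points (p = 0.113).

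Leaving out 1 library gave 0 to 1 differing chromosomes, 1.06 to 2.54 points of recurrence against exon and intron peaks, wild-type-only regions of 12 to 61 for mfn2-/-, 4 to 35 for vhl-/-, 105 to 206 for HIF1dPA and 2 to 25 for all mutants, and mutant-only regions of 8 to 28, 24 to 64 and 0 to 1 for the first 3. With the replicate number as a block, exact permutation p was 0.00521 for number (range of means 955), share (11.6 points) and width (127 bp) and 0.00347 for overlap (0.0264), with 0 chromosomes, and no call changed. The deviations of same-numbered libraries had mean correlations of -0.266, 0.00643 and 0.0219 for number, share and width, so the numbers were not taken to pair libraries. The CpG ratio of peaks was not run, and differences from exon and intron peaks at a score of at least 100 could not be computed. Depth is unknown, so a site without a peak may lie under the calling limit.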
